A study of Mus musculus with 9 samples.

Results

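The genes described here handle cellular iron in 3 mouse airway and lung cell lines: the uptake proteins Tfrc, Slc11a2 and Steap3, the exporter Slc40a1, the ferritin subunits Fth1 and Ftl1, the iron regulatory proteins Aco1 and Ireb2, and the secreted proteins Lcn2 and Ltf. These 10 genes were selected on earlier results from the same arrays, so their differences between lines are given as a description: no p-value is given for them, and a call, where one is named, says only which side of a threshold a value lay on. A gene was measured by the probe sets that carry its symbol and no other, and the array's 3 transferrin receptor control probe sets were read beside Tfrc. By that rule 9 of the 10 genes were measured, by 23 probe sets, among 18193 genes in all. Ftl1 has no value here, because each of its probe sets also carries the symbol of the pseudogene Ftl1-ps2.

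Each line was hybridised to 3 Affymetrix MG-430 2.0 arrays, 9 in all. The tumour line, MDA-F471, grew out of a lung adenocarcinoma of a female Gprc5a knockout mouse, killed 16 months after injection of the tobacco carcinogen NNK. The knockout line, NULL-NLE, and the wild-type line, WT-NLE, came from tracheas of 3-week-old Gprc5a knockout and wild-type mice, and the strain of all 3 lines is given as C57/BL6 x sv129. Gprc5a is a lung tumour suppressor gene, and the series was made to compare normal and cancer cells that lack it with normal cells that have it. Because each group is a single line, genotype, line and handling cannot be told apart, and the tumour line also differs in organ, age and carcinogen exposure. The labels do not say that the 3 arrays of a line came from separate cultures, so errors and p-values measure only the spread between arrays. Tumour and knockout lines both lack Gprc5a by label. The Gprc5a probe set read 6.96, 7.02 and 7.09 log2 units in the tumour line and 7.20, 7.09 and 7.18 in the knockout line, against 8.63, 8.74 and 8.32 in the wild-type line. Whether this probe set reads a deleted exon is not known.

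Cells take up iron bound to transferrin through the transferrin receptor. In the endosome a reductase such as Steap3 reduces the iron and Slc11a2 (DMT1) carries it to the cytosol, where it is used, stored in ferritin or exported by ferroportin (Slc40a1). When iron is scarce, Aco1 and Ireb2 bind iron-responsive elements, stabilising the Tfrc mRNA and blocking translation of ferritin. Airway epithelium also secretes lipocalin 2 (Lcn2), which binds bacterial siderophores, and lactoferrin (Ltf), which binds iron directly; both are host defence proteins that withhold iron from microbes.

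All values are log2 signals as deposited, so 1 unit is a 2-fold difference, and signals are compared between lines within a probe set and not between probe sets. The median of each array lay between 6.28 and 6.34. A floor was set, after the data had been seen, at 5.15, the 95th percentile of 27 bacterial control probe sets, and 17 of the 23 member probe sets lay above it on every array. A signal above this floor does not by itself show expression. In the tumour, knockout and wild-type lines the neutrophil gene Elane averaged 6.72, 6.64 and 6.60, and the erythroid gene Klf1 6.90, 6.78 and 6.84. Steap3 in all lines, Lcn2 in the tumour line and Ltf in the wild-type line averaged no higher than Klf1 there. A gene is called where limma's adjusted p is under 0.05 over all genes and the difference is at least 2-fold. Every gene that differed at least 2-fold also had an adjusted p under 0.05 (888 genes between knockout and wild-type lines, 2578 between tumour and knockout lines and 3012 between tumour and wild-type lines), so the fold decided every call. The lines differed in cell type markers. Of the 5 genes on the airway basal cell list, Krt14 averaged 7.25 in the tumour line, 14.68 in knockout cells and 14.52 in the wild-type line. In the same order Krt5 averaged 8.43, 14.38 and 14.46, and Krt15 5.82, 12.27 and 12.31. Trp63 was under the floor on all tumour arrays. It averaged 10.69 in knockout cells and 12.05 in the wild-type line, and that difference of -1.36 was called. The tracheal lines thus carried these basal cell markers, which the tumour line had at low levels or not above background. Ngfr, the other listed gene, differed little, at 6.39, 6.52 and 6.47. Of the 5 genes on the airway secretory cell list only Cyp2f2 was called. It averaged 5.77 in the tumour line, 11.32 in knockout cells and 11.07 in the wild-type line. Of the 4 measured genes of the alveolar type II and lung lineage list, Sftpb averaged 7.85 in the tumour line, 7.99 in knockout cells and 7.68 in the wild-type line. It was above the floor in each, which does not by itself show expression. Sftpc, Sftpa1 and Nkx2-1 averaged between 5.13 and 5.78 in the 3 lines, at or near background. In RNA from a whole culture, fewer cells of a type and less RNA per cell cannot be told apart.

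The 2 secreted iron-binding genes were highest in the knockout line. The promoters of both, from RefSeq on build GRCm38.p6, are shown because Lcn2 and Ltf moved together across the arrays; each sequence is the 250 bases before the start of the gene, read 5′ to 3′ on the strand of the gene, for Lcn2 at chr2:32387740-32387989 on the minus strand and for Ltf at chr9:111019042-111019291 on the plus strand. Capitals mark letters of an NF-kB-like motif, GGGNNNNNCC, or of a C/EBP-like motif, TTGCNNAA, each searched on both strands.
Lcn2: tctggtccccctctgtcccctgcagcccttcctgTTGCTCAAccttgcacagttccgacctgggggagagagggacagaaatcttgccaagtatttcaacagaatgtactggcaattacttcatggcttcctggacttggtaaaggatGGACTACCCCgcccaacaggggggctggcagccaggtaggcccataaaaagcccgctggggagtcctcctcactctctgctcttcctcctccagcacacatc
Ltf: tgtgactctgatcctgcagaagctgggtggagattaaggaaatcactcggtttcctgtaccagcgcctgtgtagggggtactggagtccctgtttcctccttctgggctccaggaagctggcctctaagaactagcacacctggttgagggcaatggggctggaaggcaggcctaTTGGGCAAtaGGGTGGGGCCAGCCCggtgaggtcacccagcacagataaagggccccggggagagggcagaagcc
The Lcn2 window held 1 match to the NF-kB-like motif, 102 to 93 bases before the start, and 1 to the C/EBP-like motif, 216 to 209 bases before it. The Ltf window held 3 matches to the NF-kB-like motif that overlap one another, between 65 and 51 bases before the start, and 1 to the C/EBP-like motif at 75 to 68 bases. A window was given for 8 of the 10 genes. Of all 32851 promoter windows of this length, 45.8% held the NF-kB-like motif and 9.56% the C/EBP-like motif, so a match to the first is common. Whether any of these matches bears on the signal of either gene was not tested.

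Lcn2, lipocalin 2, read 6.64, 6.24 and 6.63 in the tumour line, 10.06, 11.21 and 10.81 in knockout cells and 5.54, 5.63 and 5.18 in the wild-type line. The tumour arrays lay between those of the tracheal lines, and no array of one line overlapped another. The wild-type arrays lay just above the floor, and under the highest bacterial control signal of 5.96. The knockout line was higher than the wild-type line by 5.24 ± 0.22 on the log2 scale (SE, n = 3 per line), or 37.8-fold, the widest difference among the 9 genes. The tumour line was 4.19 ± 0.22 lower than the knockout line, 18.3-fold, and 1.05 ± 0.22 higher than the wild-type line, 2.07-fold. That last difference went under 2-fold, and was no longer called, when wild-type replicate 3 (0.92), tumour replicate 1 (0.98) or tumour replicate 3 (0.99) was left out.

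Ltf, lactoferrin, read 7.65, 8.04 and 8.08 in the tumour line, 9.37, 10.61 and 10.21 in knockout cells and 6.68, 6.93 and 6.72 in the wild-type line. The order of the lines was that of Lcn2, and the lines again did not overlap. The knockout line was 3.29 ± 0.23 higher than the wild-type line, 9.78-fold. The tumour line was 2.14 ± 0.23 lower than the knockout line, 4.41-fold, and 1.15 ± 0.23 higher than the wild-type line, 2.22-fold. Both genes had their lowest knockout value on replicate 1, and the knockout SD was 0.58 for Lcn2 and 0.63 for Ltf, against 0.24 and 0.14 in the wild-type line. Over the 9 arrays, which share their lines, Pearson's r was 0.976 between Lcn2 and Ltf. Ltf is also a neutrophil granule gene. The 6 other measured genes of the 8 on the neutrophil list (Elane, Mpo, Ngp, Camp, Mmp8 and Csf3r; Ly6g and Retnlg were not measured) summed to between 8.84 and 8.97 in the tumour line, 8.79 and 8.93 in knockout cells and 8.80 and 8.88 in the wild-type line, and none was called by limma or had an unadjusted p under 0.05 in any comparison. Of the 6 genes on the macrophage list, the leukocyte gene Ptprc and Cd163 were under the floor on all 9 arrays. Cd68 averaged 6.92 in the tumour line, 7.71 in knockout cells and 8.03 in the wild-type line, and Csf1r 8.03, 7.68 and 7.52. Adgre1 and Marco were also above the floor on every array. Only Cd68 was called, lower in tumour than in wild-type cells. Whether leukocytes were present was not tested.

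**Figure D1:**
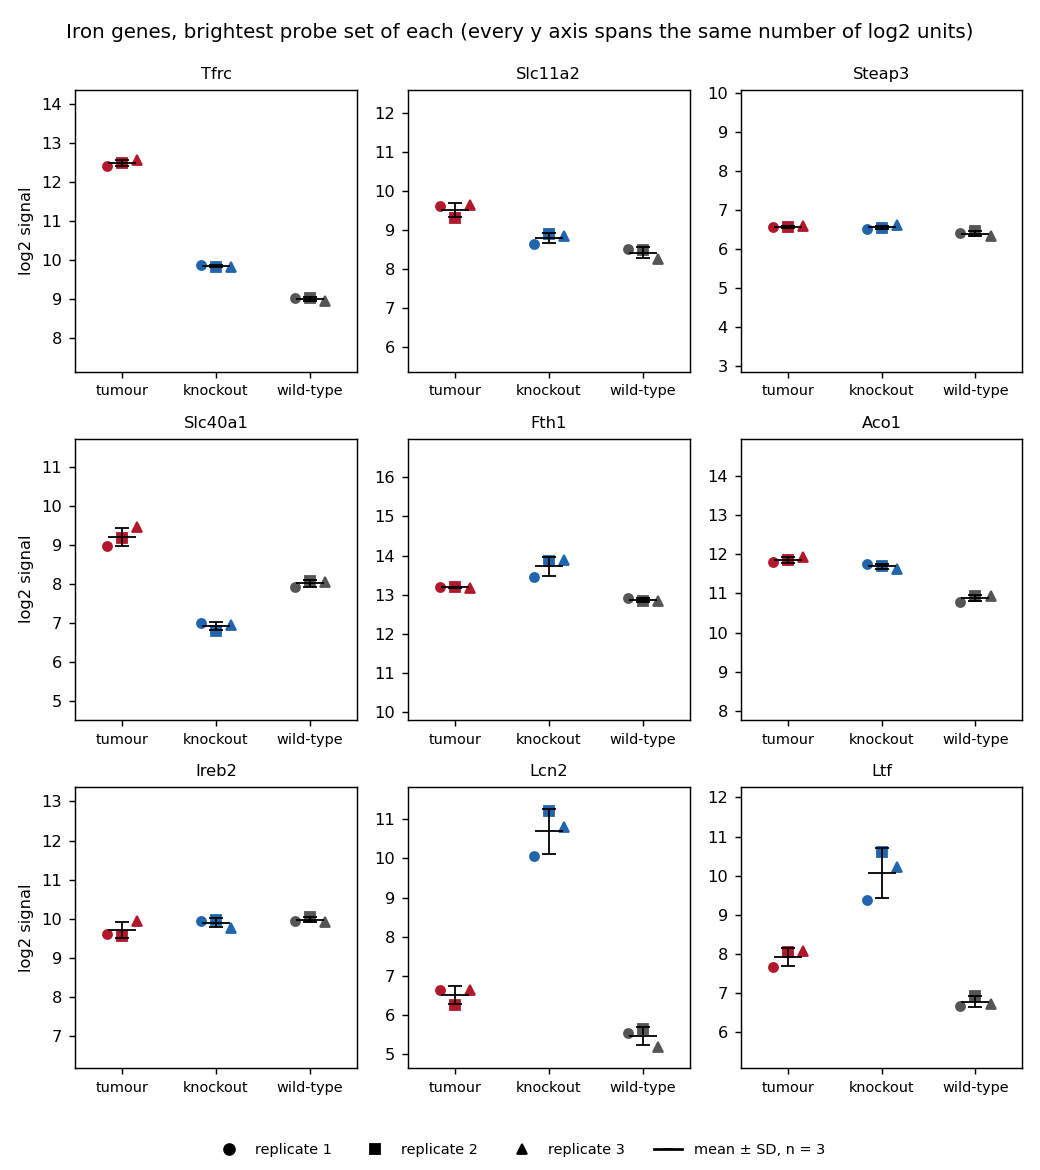
Log2 signal (vertical axis) of the 9 measured genes on each array, with tumour, knockout and wild-type arrays side by side; points are arrays and the bars give the mean ± SD of 3. Lcn2 and Ltf were highest in knockout cells and Tfrc and Slc40a1 in the tumour line, while the line means of Ireb2 and Steap3 spanned no more than 0.27 and 0.17.

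Tfrc, the transferrin receptor, was highest in the tumour line. Its probe set of highest signal, 1452661_at, read 12.40, 12.47 and 12.55 in the tumour line, 9.87, 9.83 and 9.82 in knockout cells and 9.01, 9.03 and 8.93 in the wild-type line. Each line formed a tight cluster and the 3 did not overlap. The tumour line was 2.64 ± 0.08 higher than the knockout line, 6.22-fold, and 3.48 ± 0.08 higher than the wild-type line, 11.2-fold. The knockout line was 0.85 ± 0.08 higher than the wild-type line, 1.80-fold, under the 2-fold threshold.

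The other 5 Tfrc probe sets ranked the lines in the same order and spread more within the tumour line. Probe set 1422966_a_at read 10.56, 9.62 and 9.58 in the tumour line, 6.99, 6.88 and 6.95 in knockout cells and 6.79, 6.20 and 6.17 in the wild-type line. Probe set 1422967_a_at read 8.96, 7.49 and 9.07 in the tumour line, against 5.29, 5.31 and 5.07 in knockout cells and 5.18, 4.77 and 4.69 in the wild-type line. In both, every tumour array stood above every array of the tracheal lines. The control probe set for the 3′ end of the transcript read 9.58, 8.54 and 8.83 in the tumour line, 5.73, 5.88 and 5.72 in knockout cells and 5.62, 5.28 and 5.31 in the wild-type line. The control for its middle read 7.99, 6.58 and 8.82 in the tumour line, and the control for its 5′ end 7.39, 5.82 and 7.20. These 2 controls were under the floor on every knockout and wild-type array, so the tumour line was at least 6.26-fold higher by the middle control and at least 3.15-fold higher by the 5′ control than either tracheal line. On the 3 probe sets above the floor on every array (1452661_at, 1422966_a_at and the 3′ control), the tumour line was 2.64 to 3.20 log2 units above the knockout line and 3.48 to 3.58 above the wild-type line. By the 3′ control, the tracheal arrays, at 5.28 to 5.88, lay under the highest bacterial control signal of 5.96. On 1422966_a_at the wild-type line averaged 6.39, where Klf1 averaged 6.84. These tracheal levels may thus be background in part. On 1422967_a_at, 1 knockout and 2 wild-type arrays were under the floor. No knockout against wild-type difference reached 2-fold on any of the 6. Tumour replicate 2 was the lowest tumour array on 1422967_a_at and on all 3 controls, but not on 1452661_at.

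Because the controls tile the transcript, they also bear on RNA quality. The Tfrc 3′ signal minus its 5′ signal was 2.19, 2.72 and 1.63 in the tumour line; in the tracheal lines the 5′ control was under the floor. For beta-actin the same difference was 0.37, 0.60 and 0.74 in the tumour line, 0.92, 0.90 and 0.95 in knockout cells and 0.75, 1.09 and 1.78 in the wild-type line, so every tumour array lay below every tracheal array. For Gapdh it averaged 0.47 ± 0.27 in the tumour line, 0.52 ± 0.05 in knockout cells and 0.81 ± 0.44 in the wild-type line (SD, n = 3 each), and the arrays overlapped. An exact permutation test of 3 against 3 arrays cannot give a p under 0.1, the value it gave for beta-actin in tumour against either tracheal line. The part of RNA quality in the Tfrc differences was not tested.

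**Figure D2:**
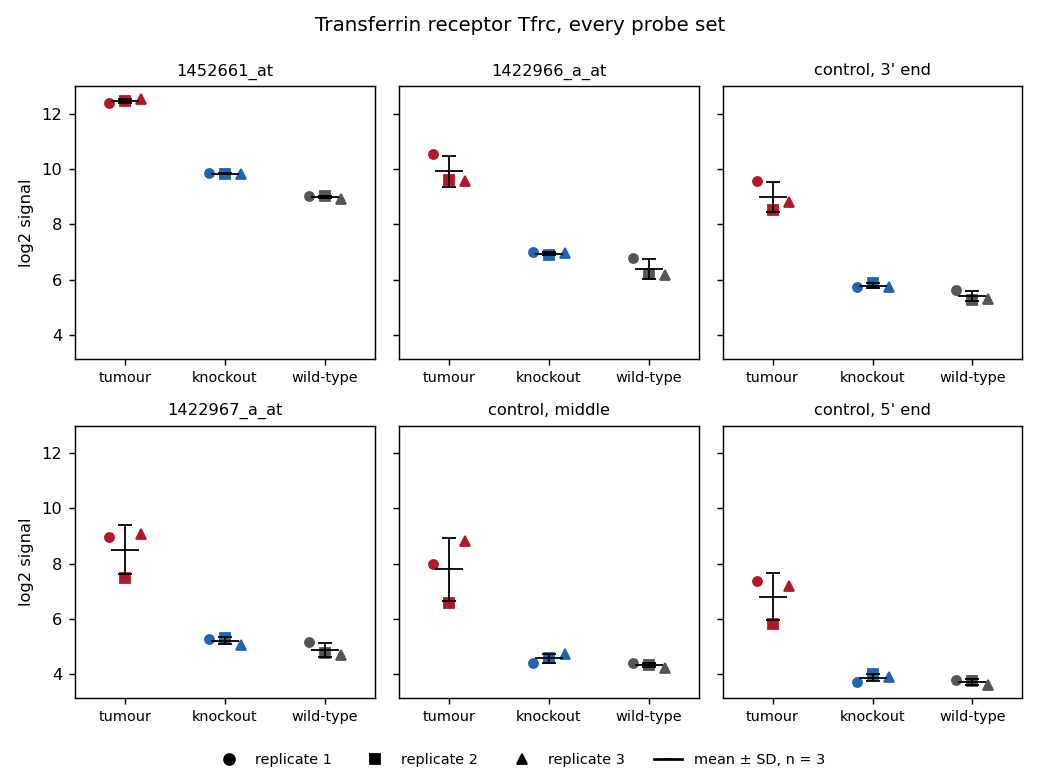
Log2 signal (vertical axis) of each of the 6 Tfrc probe sets on every array of the tumour, knockout and wild-type lines, with the replicate given by the symbol and the mean ± SD of 3 arrays by the bar. Tumour arrays are highest in all 6 panels, and tumour replicate 2 falls below the other tumour arrays in 4 of them.

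Slc11a2, the DMT1 iron transporter, gave different answers by probe set. Probe set 1452078_a_at, of highest signal, read 9.61, 9.31 and 9.64 in the tumour line, 8.64, 8.90 and 8.84 in knockout cells and 8.50, 8.49 and 8.25 in the wild-type line. By it the tumour line was 1.10 ± 0.11 higher than the wild-type line, 2.15-fold, and 0.73 ± 0.11 higher than the knockout line, and the knockout line was 0.38 ± 0.11 higher than the wild-type line. Probe set 1426441_at showed wider differences in the same order, 8.29, 7.99 and 8.31 in the tumour line against 6.84, 6.85 and 6.83 in knockout cells and 6.28, 6.64 and 6.43 in the wild-type line. Probe set 1417584_at put the tumour line lowest, at 7.69, 7.82 and 7.77, against 8.20, 8.30 and 7.98 in knockout cells and 7.96, 7.97 and 7.93 in the wild-type line. Slc11a2 is known to make mRNA isoforms that differ at their ends; which isoforms each probe set reads is not known here. Probe set 1441709_at read 6.13, 6.09 and 6.27 in the tumour line, 5.38, 5.29 and 5.05 in knockout cells and 5.35, 5.48 and 5.28 in the wild-type line, with the tracheal lines overlapping near the floor. Averaged over the Slc11a2 probe sets, the tumour against wild-type difference was 0.86 and was no longer called.

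Steap3, the endosomal ferrireductase, differed between line means by at most 0.17 on its brightest probe set. Probe set 1423468_at read 6.56, 6.55 and 6.58 in the tumour line, 6.51, 6.54 and 6.60 in knockout cells and 6.40, 6.46 and 6.33 in the wild-type line. Probe set 1453498_x_at read 5.68, 5.75 and 5.51 in the tumour line, 5.70, 5.66 and 5.53 in knockout cells and 5.45, 5.53 and 5.41 in the wild-type line, where all 3 overlapped. Probe set 1430355_a_at was under the floor on all 9 arrays.

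Slc40a1, ferroportin, the iron exporter, was highest in the tumour line and lowest in the knockout line. Probe set 1417061_at read 8.97, 9.17 and 9.45 in the tumour line, 7.00, 6.79 and 6.96 in knockout cells and 7.91, 8.07 and 8.05 in the wild-type line. It was the one measured gene of the 9 with its lowest mean in the knockout line, and no lines overlapped. The tumour line was 2.28 ± 0.12 higher than the knockout line, 4.85-fold, and 1.18 ± 0.12 higher than the wild-type line, 2.27-fold. The knockout line was 1.09 ± 0.12 lower than the wild-type line, 2.13-fold. The second probe set, 1448566_at, ranked the lines alike, at 8.08, 7.83 and 8.44 in the tumour line, 5.98, 6.36 and 5.81 in knockout cells and 7.15, 7.06 and 6.73 in the wild-type line. Its knockout against wild-type difference of -0.93 was 1.90-fold and not called. In knockout cells 1417061_at averaged 6.92 and 1448566_at 6.05, where Klf1 averaged 6.78. The knockout level of Slc40a1 may thus be background in part.

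**Figure D3:**
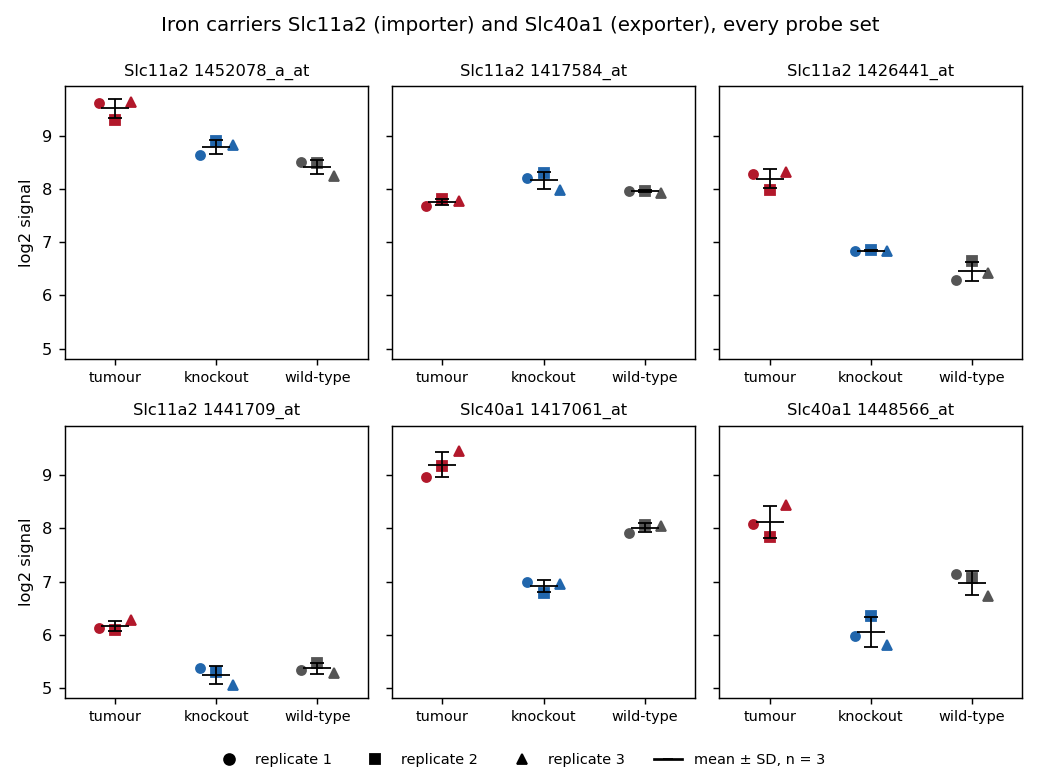
Log2 signal (vertical axis) of the Slc11a2 and Slc40a1 probe sets on each array of the tumour, knockout and wild-type lines, with mean ± SD of 3 arrays. The 2 Slc40a1 panels rank the lines alike, whereas Slc11a2 probe set 1417584_at has the tumour arrays lowest, at 7.69 to 7.82, and 1452078_a_at has them highest, at 9.31 to 9.64.

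Fth1, the ferritin heavy chain that oxidises iron for storage, was highest in the knockout line, by less than 2-fold. Probe set 1448771_a_at read 13.19, 13.19 and 13.17 in the tumour line, 13.45, 13.85 and 13.88 in knockout cells and 12.91, 12.85 and 12.83 in the wild-type line, with no overlap. The knockout line was 0.86 ± 0.11 higher than the wild-type line, 1.82-fold, and the difference reached the threshold, at 1.00, when knockout replicate 1 was left out. The tumour line was 0.54 ± 0.11 lower than the knockout line and 0.32 ± 0.11 higher than the wild-type line. Probe set 1427021_s_at, a class that can match several transcripts, read 13.21, 13.30 and 12.62 in the tumour line, 13.51, 13.82 and 13.67 in knockout cells and 13.08, 12.54 and 12.67 in the wild-type line, and there the tumour and wild-type arrays overlapped.  Fth1 shared the low knockout replicate 1 of the secreted genes: over the 9 arrays r was 0.961 with Lcn2 and 0.983 with Ltf.

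Aco1, which is the cytosolic aconitase when it holds an iron-sulphur cluster and iron regulatory protein when it does not, was lowest in the wild-type line. Probe set 1456728_x_at read 11.79, 11.86 and 11.94 in the tumour line, 11.75, 11.71 and 11.63 in knockout cells and 10.79, 10.94 and 10.93 in the wild-type line. The knockout line was 0.81 ± 0.09 higher than the wild-type line and the tumour line 0.97 ± 0.09 higher, 1.97-fold, just under the threshold. Leaving out tumour replicate 1 took the tumour against wild-type difference to 1.01, past it. Probe set 1423644_at read 10.45, 10.21 and 10.57 in the tumour line, 10.10, 10.12 and 10.11 in knockout cells and 9.19, 9.21 and 9.22 in the wild-type line, and its tumour against wild-type difference of 1.20 was 2.30-fold and called. With probe sets ending in _x_at or _s_at left out, 1423644_at stood for Aco1. Then 6 of the 9 iron genes were called between tumour and wild-type lines. Probe set 1447080_at was under the floor on all 9 arrays.

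Ireb2, the iron regulatory protein that is degraded when iron is plentiful, read 9.62, 9.55 and 9.95 in the tumour line, 9.95, 9.97 and 9.77 in knockout cells and 9.95, 10.05 and 9.92 in the wild-type line. The arrays of the lines overlapped, and the tumour line differed from the knockout line by -0.19 ± 0.11 and from the wild-type line by -0.27 ± 0.11. The knockout line differed from the wild-type line by -0.07 ± 0.11. Its control is known to act largely on the protein, which an array does not measure.

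Of the 9 genes, 5 had their highest mean in the tumour line (Tfrc, Slc11a2, Slc40a1, Aco1 and Steap3), 3 in the knockout line (Lcn2, Ltf and Fth1) and 1, Ireb2, in the wild-type line. The lowest mean fell in the wild-type line for 7 genes. Between knockout and wild-type lines 3 of 9 genes were called, 2 higher and 1 lower, where 4.88% of all genes were called, 1.9% higher and 2.98% lower; 3 of 23 probe sets were called, against 3.71% of all probe sets. Between tumour and knockout lines 4 genes were called, 2 higher and 2 lower, where 14.2% of all genes were, 7.79% higher and 6.38% lower; 11 of 23 probe sets were called, against 11.4%. Between tumour and wild-type lines 5 genes were called, all higher, where 16.6% of all genes were, 8.09% higher and 8.46% lower; 13 of 23 probe sets were called, against 13.1%. Because the genes were chosen for these differences, nothing is read from the shares, and the 3 comparisons share arrays. The median log2 difference over the 9 genes was 0.81 between knockout and wild-type cells, where that of all genes was -0.0042. It was 0.011 between tumour and knockout cells, where that of all genes was 2.7e-05, and 1.05 between tumour and wild-type cells, where that of all genes was 0.010.

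Other iron genes were taken by role from fixed lists, drawn up with results of these data known and not by how the genes moved. Of 71 listed genes 64 were measured. Between knockout and wild-type lines 3 rose and none fell, 4.69% of the 64, while 27 had an unadjusted p under 0.05, 20 of them higher and 7 lower. That is 42.2% of the 64, where 35% of all genes had an unadjusted p under 0.05. Between tumour and knockout lines 5 rose and 5 fell, 15.6%, and between tumour and wild-type lines 6 rose and 5 fell, 17.2%. Each share lies near that of all genes. The median log2 differences over the 64 genes were 0.069, -0.016 and 0.12 in the same 3 comparisons.

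Among 12 measured genes of the transferrin cycle, reductases and other uptake routes, 1 rose in knockout against wild-type cells, and 3 rose and 1 fell in tumour cells against either tracheal line. Scara5, a receptor that takes up ferritin, read 6.31, 6.18 and 6.39 in the tumour line, 9.24, 10.11 and 9.87 in knockout cells and 7.37, 7.52 and 7.30 in the wild-type line. It rose in the knockout line by 2.34 ± 0.17 (limma, adjusted p = 7.4e-08) and in the tumour line fell by 3.44 ± 0.17 against the knockout line (adjusted p = 2.64e-10) and fell by 1.10 ± 0.17 against the wild-type line (adjusted p = 5.21e-05). The metalloreductase Steap2 read 10.37, 9.99 and 10.46 in the tumour line, 7.45, 7.64 and 7.54 in knockout cells and 7.89, 8.13 and 8.18 in the wild-type line. Steap2 rose in the tumour line by 2.73 ± 0.12 against the knockout line and by 2.20 ± 0.12 against the wild-type line (adjusted p = 1.3e-10 and 1.14e-09), and its relative Steap1 by 2.06 ± 0.13 and 1.87 ± 0.13 (adjusted p = 5.47e-09 and 1.32e-08). Slc39a8 (ZIP8), a metal transporter that can carry iron, read 8.05, 8.01 and 8.35 in the tumour line, 3.89, 4.68 and 4.37 in knockout cells and 4.35, 4.63 and 5.54 in the wild-type line. All knockout arrays were under the floor, so the tumour line was at least 7.92-fold higher than the knockout line (adjusted p = 6.91e-09). Of the genes not called, Slc22a17, a receptor reported for Lcn2, was 0.81 ± 0.10 higher in knockout than in wild-type cells, under 2-fold, and Mcoln1, an endolysosomal cation channel, gave -0.35 ± 0.12.

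Of 8 measured genes of iron export and systemic control, 1 was called: Cp, the ferroxidase ceruloplasmin that works with ferroportin. It read 6.05, 6.35 and 6.55 in the tumour line, 9.22, 9.72 and 9.29 in knockout cells and 6.12, 6.48 and 6.57 in the wild-type line. Cp rose in the knockout line by 3.02 ± 0.16 against the wild-type line (limma, adjusted p = 2.1e-09) and in the tumour line fell by 3.09 ± 0.16 against the knockout line (adjusted p = 4.25e-10), while tumour and wild-type arrays overlapped (-0.07, adjusted p = 0.749). Cp averaged 6.31 in the tumour line and 6.39 in the wild-type line, under Klf1 at 6.90 and 6.84. Both levels may thus be background in part. Cp was highest in the line in which Slc40a1 was lowest. Neogenin (Neo1) and Bmp6, which act on hepcidin control, were not called. Neo1 was 0.96 ± 0.11 higher in tumour than in wild-type cells, 1.95-fold, just under the threshold. Among 9 measured genes of ferritin handling or with iron-responsive elements, Epas1, the HIF-2α gene whose mRNA has such an element, was called between tumour cells and each tracheal line. It read 7.14, 7.34 and 7.53 in the tumour line, 12.35, 12.18 and 12.01 in knockout cells and 11.56, 11.60 and 11.68 in the wild-type line. In the tumour line it fell by 4.84 ± 0.11 against the knockout line and fell by 4.27 ± 0.11 against the wild-type line (adjusted p = 9.44e-14 and 2.83e-13). Between knockout and wild-type lines none of the 9 was called, though 3 had an unadjusted p under 0.05 (33.3%, against 35% of all genes). The iron chaperones Pcbp1 and Pcbp2 were not called in any comparison.

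Of 20 measured haem genes, 1 rose between knockout and wild-type lines, and 2 rose and 2 fell between tumour cells and either tracheal line. Alad, an enzyme of haem synthesis, was called in all 3 comparisons, by 1.43 ± 0.12 in knockout over wild-type cells, 1.38 ± 0.12 in tumour over knockout cells and 2.81 ± 0.12 in tumour over wild-type cells (limma, adjusted p = 4.6e-07, 1.97e-07 and 5.66e-11). Abcg2, a transporter that exports porphyrins among other substrates, read 9.87, 10.08 and 10.24 in the tumour line, 5.50, 5.51 and 5.49 in knockout cells and 5.16, 5.50 and 5.38 in the wild-type line, close to the floor in both tracheal lines. It rose in the tumour line by 4.56 ± 0.11 and 4.72 ± 0.11 (adjusted p = 1.41e-13 and 7.12e-14). Haem oxygenase Hmox1, which frees iron from haem, fell by 1.20 ± 0.13 in the tumour line against the knockout line and fell by 1.15 ± 0.13 against the wild-type line. Lrp1, a receptor for haem bound to haemopexin, fell by 1.44 ± 0.09 and fell by 1.28 ± 0.09 in the same comparisons. Hmox2 and Fech were not called. Of 15 measured genes of mitochondrial iron and iron-sulphur clusters, Bola3, which helps deliver such clusters, rose by 1.35 ± 0.09 and the transporter Abcb10 fell by 1.13 ± 0.10 between tumour and wild-type lines (adjusted p = 6.48e-09 and 1.24e-07). In the other comparisons limma called none, but 10 had an unadjusted p under 0.05 between knockout and wild-type lines, 9 of them higher, all under 2-fold, and 9 did between tumour and knockout lines. Those are 66.7% and 60% of the 15, where 35% and 49.5% of all genes had such a p, and the shares were not tested against each other. Cisd1 and Glrx5 were not called.

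Other secreted antimicrobial proteins did not share one pattern with Lcn2 and Ltf. Of 14 measured, 2 rose between knockout and wild-type lines, and 1 rose and 2 fell between tumour cells and either tracheal line. Saa3, an acute phase protein, rose in the knockout line by 1.04 ± 0.12 against the wild-type line (limma, adjusted p = 9.77e-06), at 6.76, 6.63 and 6.75 in the tumour line, 7.40, 7.90 and 7.77 in knockout cells and 6.68, 6.56 and 6.71 in the wild-type line. Its tumour and wild-type means were under those of Klf1, at 6.90 and 6.84. The defensin Defb1 rose in the knockout line by 1.74 ± 0.13 against the wild-type line (adjusted p = 1.37e-07) and in the tumour line, where it was near the floor, fell by 6.32 ± 0.13 against the knockout line (adjusted p = 2.61e-14). In the tumour line the protease inhibitor Slpi fell by 3.01 ± 0.19 against the knockout line and fell by 3.41 ± 0.19 against the wild-type line. Wfdc2 rose there by 2.42 ± 0.15 and 3.20 ± 0.15 in the same comparisons. Lyz2 and Camp were not called. Knockout replicate 1, the lowest knockout array for Lcn2, Ltf and Fth1, was also the lowest for Scara5, Cp and Saa3. With any 1 array left out, 3 of the 64 other iron genes were called between knockout and wild-type lines and 10 between tumour and knockout lines, as with all arrays. Between tumour and wild-type lines the count was 11 with all arrays and 12 without wild-type replicate 3.

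**Figure D4:**
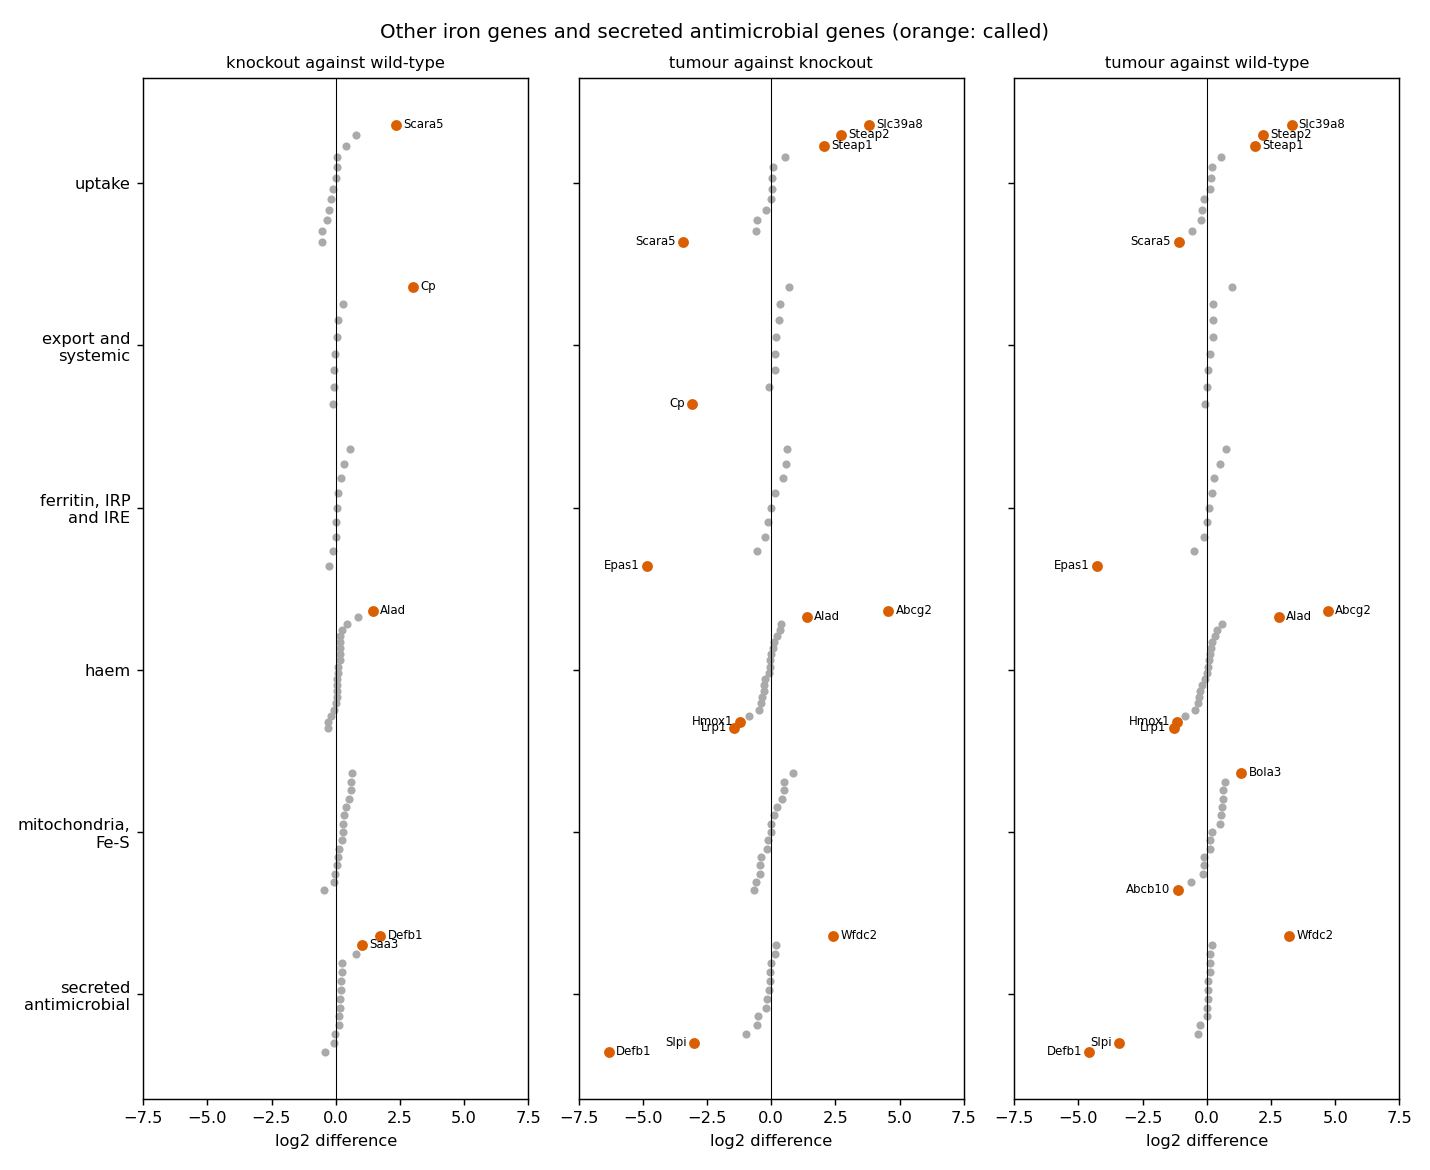
Log2 difference (horizontal axis) of each other iron gene and secreted antimicrobial gene, in rows by role, with a panel for each of the 3 comparisons; each point is a gene and orange points were called. Most genes lie near 0, with Cp and Scara5 rising in the knockout line, at 3.02 and 2.34, and Abcg2 rising most in the tumour line, at 4.56 and 4.72.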

How the data were processed

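Per the labels' protocols, RNA was purified on silica columns with DNase, checked by its ribosomal RNA ratio, and labelled as biotin cRNA. The deposited values are log2 signals per probe set and array. How the authors corrected background, summarized probes and normalized arrays is not given in the sources used here. Array number limits the precision. The genes and lists were chosen with earlier results of these data known. Probe sets were named from the platform annotation: of 45101, 34945 have 1 symbol, 932 several and 9160 none, and 64 are controls. For each gene the single-symbol probe set of highest mean was fitted with limma 3.58.1 in R 4.3.3 (lmFit and eBayes, no trend, all 9 arrays, 6 residual degrees of freedom), with Benjamini-Hochberg adjustment over 18193 genes; a second fit took all probe sets. SE is limma's. The fit was tested on simulated data. Of each list, called genes were named up to 6 per comparison, with up to 2 uncalled genes of highest signal. Alternatives changed scaling, filter, probe set choice, fold threshold, trend, arrays fitted and replicates.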

Additional observations from a re-analysis of the deposited data

How the results depend on the processing

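Each member's difference was recomputed under 9 other settings and without each of the 9 arrays in turn. Of 405 recomputed differences 390 kept their direction and call, 4 lost the call, 11 gained it and 0 reversed. Of 177 recomputed counts 168 stayed within 1.5 times; the other 9 all came from dropping the 2-fold threshold. Without it, knockout against wild-type had 4805 genes, 7 of the 9 iron genes, 21 other iron genes and 11 member probe sets; tumour against knockout had 8103 genes, 37 other iron genes and 17 member probe sets; and tumour against wild-type had 8614 genes and 31 other iron genes. Leaving out 1 array gave 886 to 905, 2553 to 2638 and 2990 to 3081 genes in those comparisons. Equal replicate numbers do not pair the arrays (correlations of their deviations lay between -0.142 and 0.119), and with a replicate block the counts were 888, 2578 and 3012 genes and 3, 4 and 5 of the 9 iron genes, the same as without it, since a balanced block leaves each difference as it was. Quantile normalization or median centring moved array medians by at most 0.03. Signals near the floor bound the Lcn2 level in wild-type cells and the Tfrc control levels in both tracheal lines. Steap3, Lcn2 in tumour cells, Ltf in wild-type cells and Slc40a1 in knockout cells may also read background in part. So may Cp and Saa3 in tumour and wild-type cells, and Scara5 and Lrp1 in tumour cells.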

Other observations

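For each iron gene whose line means span at least 1 log2 unit, the genes most like it over the 9 arrays were taken by Pearson's r among 3636 genes of such span; the arrays share 3 lines, so high values are common and are given as a description. Tfrc lay closest to Chka, St6gal1 and Fam107b, each at r = 0.998, and Slc40a1 to Srm (0.995), Cdt1 (0.994) and Lrrc75a (0.993). Slc11a2 lay closest to Tlr4 (0.985), Elovl7 (0.983) and Tprkb (0.982). Lcn2 lay closest to Trim11 (0.991), Acad9 (0.990) and Niban1 (0.990), and Ltf to Aldh1a7 (0.979), Niban1 (0.978) and Pttg1ip (0.975). Niban1, the one gene on both of the last lists, averaged 7.24 ± 0.07 in the tumour line, 9.17 ± 0.20 in knockout cells and 6.63 ± 0.23 in the wild-type line (SD, n = 3 each).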
